A study of Mus musculus with 12 samples.

Results

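The endothelial and angiogenesis genes examined here are 34 named genes that mark blood vessel endothelium or serve its growth. They are 11 genes of endothelial junctions and surface, 9 receptors, 5 transcription factors, 6 genes of secreted products and capillary functions, and 3 ligands. Each was found on the array through a RefSeq accession mapped to its mouse symbol and was represented by its brightest probe. All 34 were measured, among 31453 genes or unnamed probes tested, of which 15954 carried a gene name. The samples were gonadal white adipose tissue of male C57BL/6N mice aged 59 to 67 days. The genotypes were the double knockout Gadd45a-/-;Ing1-/- (DKO), the knockout of Ing1 alone (Ing1-KO), the knockout of Gadd45a alone (Gadd45a-KO) and the wild type (WT), all from interbreeding of Gadd45a-deficient with Ing1-deficient mice. Each genotype had 3 one-colour arrays, and each array held RNA pooled from 3 of its 9 animals, so a single animal's level was not seen and the spread is one between pools. No tissue-specific promoter or Cre was named, so the cells that lacked the genes were not limited to fat cells or vessels.

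White fat is densely supplied with capillaries, and its endothelium passes hormones, oxygen and fatty acids between blood and fat cells. Vascular endothelial growth factors bind the tyrosine kinase receptors Flt1, Kdr and Flt4 on endothelial cells and drive the sprouting and upkeep of blood and lymphatic vessels, and Vegfa is made in fat tissue largely by the fat cells. The angiopoietin Angpt1 binds the receptor Tek, which steadies vessels together with its relative Tie1, and the phosphatase Ptprb holds Tek back. Junction proteins such as Cdh5, Cldn5 and Esam seal the vessel wall, and the ETS factor Erg and the factors Sox7, Sox17 and Sox18 keep the endothelial gene programme active.

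The arrays gave a median processed signal of 39.3 to 68.8 intensity units, and 58.2% to 68.1% of 59305 spots were well above background, with WT replicate 2 lowest on both measures. The number of arrays limits the precision. On the normalized log2 scale, the Ing1 signal lay between 9.11 and 9.59 in DKO and between 9.27 and 9.54 in Ing1-KO, against 12.38 to 12.80 in Gadd45a-KO and 12.43 to 12.51 in WT. The Gadd45a probe read higher in the arrays labelled as lacking that gene, at 10.59 to 10.63 in DKO and 10.07 to 10.26 in Gadd45a-KO, against 9.06 to 9.29 in Ing1-KO and 9.34 to 9.79 in WT. Whether that probe lies in the deleted part is not known, so directions for Gadd45a rest on the labels alone. The defining endothelial markers were present: 33 of the 34 genes, Pecam1, Cdh5, Kdr and Tie1 among them, were well above background on all 12 arrays, and none was saturated. Prox1, a factor of lymphatic endothelium, was above background on 6 arrays, of which 0 were DKO, 1 Ing1-KO, 3 Gadd45a-KO and 2 WT.

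One array stood apart for these genes. DKO replicate 2 held the highest of the 12 values for 21 of the 34 genes, against 15.9% of all genes tested, and its median deviation from the 12-array mean was 0.54 on the log2 scale. Gadd45a-KO replicate 3 held the lowest value for 12 of the 34 and WT replicate 3 for 8, against 12.8% and 8.37% of all genes, with median deviations of -0.28 and -0.31. In tissue RNA, fewer cells of a type and less RNA per cell cannot be told apart.

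**Figure D1:**
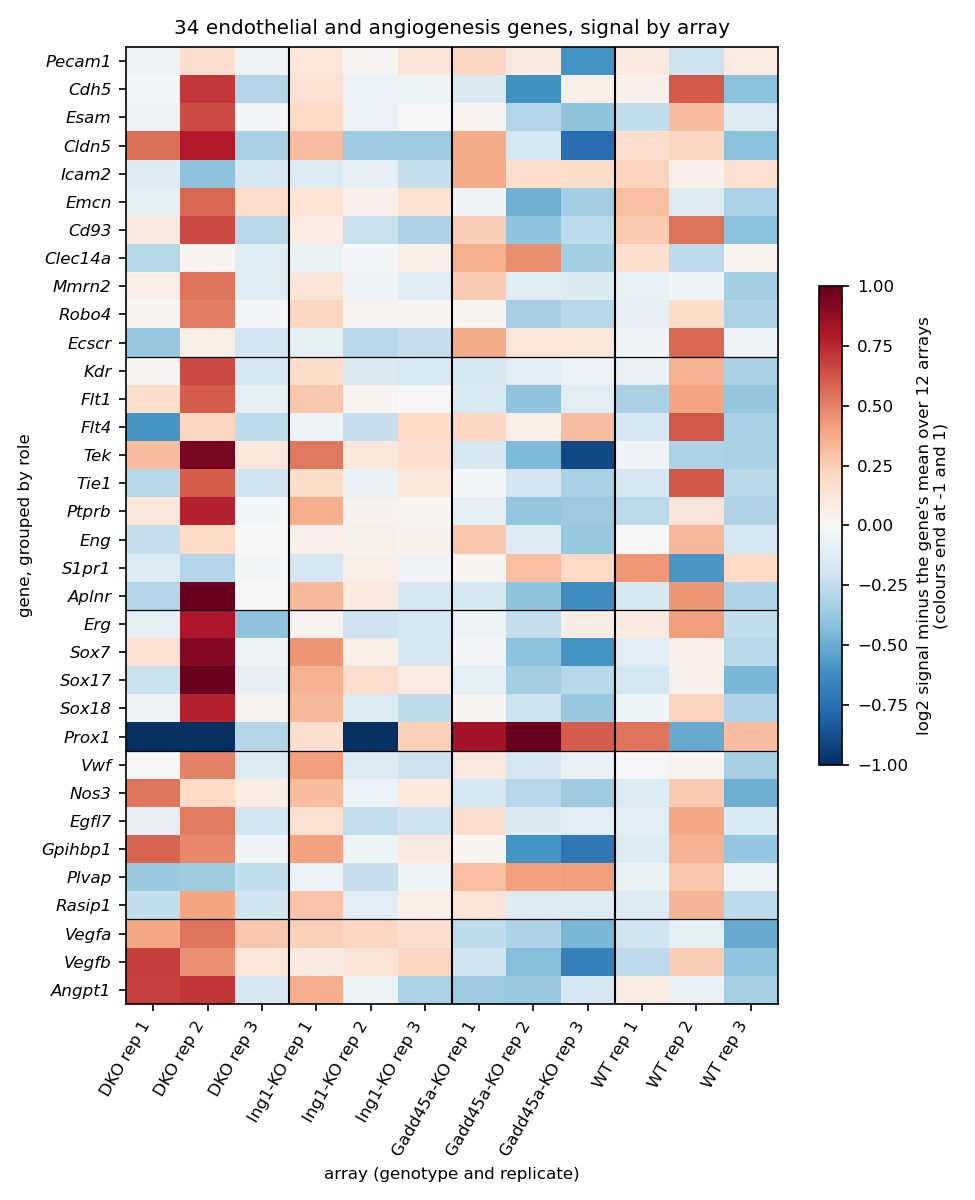
Normalized log2 signal of each of the 34 genes (rows, grouped by role from junctions and surface at the top to ligands at the bottom) on each of the 12 arrays (columns, 3 per genotype), as the difference from the gene's mean over all arrays, with colours ending at -1 and 1. The column of DKO replicate 2 is red for most genes, Vegfa and Vegfb are red in the Ing1-lacking arrays, and Icam2, Plvap and Prox1 run the other way.

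The loss of Ing1 in mice that lack Gadd45a was read from DKO against Gadd45a-KO. Of the 34 genes, 4 rose (Tek, Vegfb, Gpihbp1 and Vegfa) and 3 fell (Prox1, Plvap and Icam2) at an adjusted p under 0.05 by limma, which is 20.6% of the genes. Prox1 was above background on 3 Gadd45a-KO and 0 DKO arrays, so its call gives no measured fold. Across all genes tested 15.6% passed in the same comparison, 6.39% higher and 9.17% lower, so the share is near the background. The median log2 fold change was 0.33 over the 34 genes, 27 of them positive, against -0.04 over all genes tested. An unadjusted p under 0.05 was reached by 12 of the 34, against 33.1% of all genes. The 3 DKO arrays lay above all 3 Gadd45a-KO arrays for 7 of the genes, where 15.9% of all genes did so, and below them for 5, where 21.6% of all genes did so.

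Averaged over both Gadd45a states, the 6 arrays without Ing1 (DKO and Ing1-KO) against the 6 with it (Gadd45a-KO and WT) called 6 of the 34 genes. Tek, Vegfa and Vegfb rose, and Prox1, Plvap and Icam2 fell. Prox1 was above background on 0 DKO arrays and 1 Ing1-KO array, so its call rests largely on values at background. The share of 17.6% stands beside 16.6% of all genes tested, 6.6% higher and 10% lower, and is also near the background. An unadjusted p under 0.05 was reached by 15 of the 34, against 33.2% of all genes. The median over the 34 genes was 0.15, with 25 positive, against -0.05 over all genes. This comparison shares its DKO and Gadd45a-KO arrays with the one before, so their values are not independent.

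Of the 3 ligands, Vegfa and Vegfb rose. Vegfa, the main growth factor of blood vessels, had normalized log2 signals of 13.63, 13.77 and 13.51 in DKO and 13.48, 13.45 and 13.41 in Ing1-KO, against 12.98, 12.92 and 12.78 in Gadd45a-KO and 13.03, 13.15 and 12.74 in WT. All 6 Ing1-lacking arrays lay above all 6 others, as for 3.17% of all genes in that direction. Its log2 fold change was 0.74 ± 0.12 (SE, 1.67-fold) in DKO against Gadd45a-KO with an adjusted p of 0.00931 by limma, and 0.61 ± 0.09 (1.52-fold) for Ing1 loss over both Gadd45a states with an adjusted p of 0.00437. Within the 3 slides, each with 1 array per genotype, DKO less Gadd45a-KO was 0.64, 0.85 and 0.73. A second Vegfa probe gave 0.87 ± 0.17 and 0.56 ± 0.12. Vegfa passed in each of 12 fits that left out 1 array, in both comparisons, with values of 0.67 to 0.81 in the first and 0.55 to 0.65 in the second.

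Vegfb, a ligand of Flt1 linked in mice to endothelial uptake of fatty acids, had signals of 12.97, 12.74 and 12.40 in DKO and 12.37, 12.40 and 12.49 in Ing1-KO, against 12.08, 11.86 and 11.60 in Gadd45a-KO and 12.01, 12.53 and 11.88 in WT. DKO lay above Gadd45a-KO without overlap, as for 15.9% of all genes. WT replicate 2 lay within the Ing1-lacking arrays. The log2 fold change was 0.85 ± 0.19 (1.81-fold) in DKO against Gadd45a-KO, adjusted p 0.0181 by limma, and 0.57 ± 0.13 for Ing1 loss over both states, adjusted p 0.0188. Within slides the first difference was 0.89, 0.88 and 0.79. It lost its call without DKO replicate 1 or 2 or Gadd45a-KO replicate 2 or 3. Angpt1, the agonist of Tek, had 10.93, 10.95 and 10.08 in DKO against 9.88, 9.87 and 10.07 in Gadd45a-KO. Its DKO replicate 3 lay just above the highest Gadd45a-KO array, and its log2 fold change of 0.72 ± 0.23 had an adjusted p of 0.0561, short of the threshold. With the slide as a block that p was 0.0299.

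The RefSeq start-site windows of the Vegf ligands that rose are shown because both genes moved together. RefSeq windows were matched for 16 of the 34 genes, and the 250 bases before the start in GRCm38.p6 are printed 5′ to 3′ on the gene's strand, with the Sp1-type GC box GGGCGG or its complement CCGCCC in capitals. Vegfa lies on chromosome 17 on the minus strand, and the window before its most upstream start of 2 in the table is chr17:46032378-46032627. Vegfb lies on chromosome 19 on the minus strand, with its window at chr19:6987652-6987901.
Vegfa: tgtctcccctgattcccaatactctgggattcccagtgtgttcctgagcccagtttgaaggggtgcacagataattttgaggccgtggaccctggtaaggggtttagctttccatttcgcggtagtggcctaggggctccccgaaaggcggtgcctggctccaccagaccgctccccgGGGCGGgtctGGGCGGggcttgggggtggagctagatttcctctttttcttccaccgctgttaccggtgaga
Vegfb: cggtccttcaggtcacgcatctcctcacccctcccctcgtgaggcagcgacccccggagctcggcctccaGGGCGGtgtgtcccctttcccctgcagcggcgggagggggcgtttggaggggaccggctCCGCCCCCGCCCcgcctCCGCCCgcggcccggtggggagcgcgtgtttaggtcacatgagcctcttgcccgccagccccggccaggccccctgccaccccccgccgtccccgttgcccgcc
The Vegfa window holds 2 GC boxes and the Vegfb window 4, and the window of Tek, which also rose, holds 0; it overlaps the annotated gene and is not printed. Of 22 windows matched to 16 of the 34 genes, so that some genes count more than once, 11 (50%) hold at least 1. The share of all 32841 mouse windows of this length with at least 1 was 32.7%. The ETS core GGAA, with TTCC on the other strand, occurs 6 times in the Vegfa window and 1 time in the Vegfb window. It is in 20 of the 22 windows (90.9%) and in 93.5% of all windows. The ACGTG form of the hypoxia response element core, with CACGT on the other strand, is in neither Vegf window. It is in 2 of the 22 windows (9.09%) and in 16.6% of all windows. No share was tested against that of all windows. The GCGTG form, which the Vegfb window holds, was not counted over all windows. These matches are letters in a window and were not measured as binding.

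**Figure D2:**
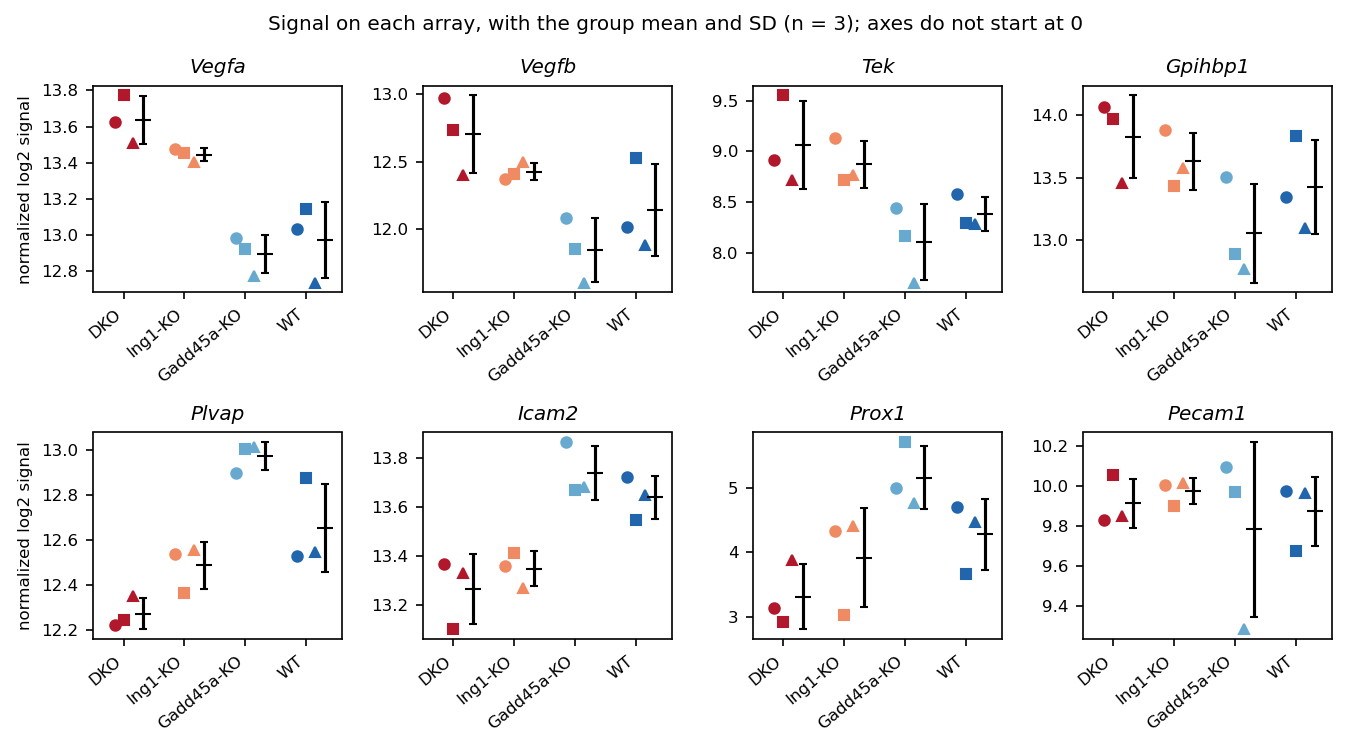
Normalized log2 signal (vertical axis, not starting at 0) on each array by genotype for the 7 genes called in DKO against Gadd45a-KO, with Pecam1 as a pan-endothelial gene that did not pass. Circles, squares and triangles are replicates 1, 2 and 3, and bars are the mean and SD of 3 arrays. The Vegfa points of DKO and Ing1-KO lie above all points of Gadd45a-KO and WT, and the Icam2 points lie below them.

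Among the 9 receptors, only Tek passed in either comparison. Tek, the angiopoietin receptor Tie2, had signals of 8.92, 9.55 and 8.72 in DKO and 9.14, 8.72 and 8.76 in Ing1-KO, against 8.44, 8.17 and 7.70 in Gadd45a-KO and 8.58, 8.29 and 8.28 in WT. The 6 Ing1-lacking arrays lay above the 6 others, as for 3.17% of all genes in that direction. Its log2 fold change was 0.96 ± 0.24 (1.95-fold) in DKO against Gadd45a-KO, adjusted p 0.0249 by limma, and 0.72 ± 0.17 for Ing1 loss over both states, adjusted p 0.0186. Within slides the first difference was 0.48, 1.39 and 1.02. The first call was lost in 4 of 12 fits that left out 1 array: without DKO replicate 1 (1.03, adjusted p 0.0579), DKO replicate 2 (0.72, 0.0917), Gadd45a-KO replicate 2 (0.99, 0.0627) or Gadd45a-KO replicate 3 (0.76, 0.102). Over the 12 fits the adjusted p was 0.0101 to 0.102, and over the settings that kept all arrays it was 0.0149 to 0.0707, past the threshold except with only the arrays compared.

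The VEGF receptors did not pass. Flt1, the receptor of Vegfa and Vegfb, averaged 12.94 ± 0.35 in DKO and 12.82 ± 0.15 in Ing1-KO, against 12.49 ± 0.16 in Gadd45a-KO and 12.61 ± 0.44 in WT (SD, n = 3 arrays each), with a log2 fold change of 0.45 ± 0.22 in DKO against Gadd45a-KO. Kdr, the main signalling receptor of Vegfa, averaged 12.20 ± 0.44 in DKO and 11.92 ± 0.05 in Gadd45a-KO, with a log2 fold change of 0.28 ± 0.21 on its brightest probe and 0.07 ± 0.24 on the second. For Ing1 loss over both states the Kdr probes had opposite signs, 0.13 ± 0.15 and -0.18 ± 0.17. Flt4, the receptor of lymphatic growth factors, had -0.41 ± 0.28 in DKO against Gadd45a-KO.

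Ptprb, the phosphatase that holds back Tek, had signals of 13.41, 14.07 and 13.28 in DKO against 13.20, 12.91 and 12.94 in Gadd45a-KO. DKO lay above Gadd45a-KO without overlap, as for 15.9% of all genes. The Ptprb log2 fold change was 0.57 ± 0.20 with an adjusted p of 0.0704 by limma. For Ing1 loss over both states it was 0.43 ± 0.14 with an adjusted p of 0.0576 by limma, which was 0.0442 with the slide as a block. A second Ptprb probe gave 0.50 ± 0.25 and 0.28 ± 0.18. The apelin receptor Aplnr spread widely, at 8.60, 10.17 and 8.89 in DKO against 8.71, 8.49 and 8.27 in Gadd45a-KO, with a log2 fold change of 0.73 ± 0.34. Its DKO replicate 2 stood far above the other DKO arrays, of which replicate 1 lay below Gadd45a-KO replicate 1. The remaining receptors were Tie1 with 0.22 ± 0.26, the TGF-beta co-receptor Eng with 0.07 ± 0.18 and the sphingosine phosphate receptor S1pr1 with -0.32 ± 0.21.

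Of the 11 genes of junctions and surface, only Icam2 passed, and it fell. Icam2, an adhesion molecule of resting endothelium that platelets and leukocytes also carry, had signals of 13.37, 13.10 and 13.33 in DKO and 13.36, 13.41 and 13.27 in Ing1-KO, against 13.87, 13.67 and 13.68 in Gadd45a-KO and 13.72, 13.55 and 13.65 in WT. Every Ing1-lacking array lay below every Ing1-carrying one, as for 5.24% of all genes in that direction. Its log2 fold change was -0.48 ± 0.11 (1.39-fold lower) in DKO against Gadd45a-KO, adjusted p 0.0202 by limma, and -0.38 ± 0.08 for Ing1 loss over both states, adjusted p 0.0115. Within slides the first difference was -0.50, -0.57 and -0.35. It did not pass with centring on the median, at -0.39, with only the arrays compared, at an unchanged -0.48 (adjusted p 0.0665), nor without DKO replicate 2, at -0.39, or without any 1 Gadd45a-KO array, at -0.51 to -0.41.

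The canonical junction genes did not pass. Pecam1, the adhesion molecule CD31, averaged 9.91 ± 0.12 in DKO and 9.97 ± 0.06 in Ing1-KO, against 9.78 ± 0.44 in Gadd45a-KO and 9.87 ± 0.17 in WT (SD, n = 3 arrays each). The groups overlapped, and the log2 fold change was 0.13 ± 0.18 in DKO against Gadd45a-KO and 0.11 ± 0.13 for Ing1 loss over both states, with adjusted p of 0.676 and 0.576 by limma. VE-cadherin (Cdh5) had 0.36 ± 0.28, the tight junction gene Cldn5 0.53 ± 0.33 and the adhesion gene Esam 0.42 ± 0.20 in DKO against Gadd45a-KO. In DKO replicate 2 alone these genes stood at 12.71, 13.99 and 12.18. The other DKO arrays lay at 11.98 and 11.71 for Cdh5, 13.75 and 12.88 for Cldn5, and 11.48 and 11.52 for Esam.

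The sialomucin Emcn, a marker of capillaries and veins, had 0.50 ± 0.20 with an adjusted p of 0.102, and the guidance receptor Robo4 0.37 ± 0.17. Mmrn2 and its partner lectins Cd93 and Clec14a, which bind each other at the endothelial surface, differed in sign: the log2 fold changes were 0.17 ± 0.17, 0.30 ± 0.28 and -0.29 ± 0.21, and none passed. Ecscr, a surface protein tied to endothelial migration, had 10.39, 10.82 and 10.57 in DKO against 11.14, 10.88 and 10.87 in Gadd45a-KO. DKO lay below Gadd45a-KO without overlap, as for 21.6% of all genes. The Ecscr log2 fold change was -0.37 ± 0.17. For Ing1 loss over both states Ecscr had -0.37 ± 0.12 with an adjusted p of 0.056 by limma.

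Among the 5 transcription factors, Prox1 fell and the others did not pass. Prox1, which sets lymphatic identity, had normalized log2 signals of 3.13, 2.91 and 3.88 in DKO and 4.33, 3.02 and 4.40 in Ing1-KO, against 5.0, 5.72 and 4.77 in Gadd45a-KO and 4.70, 3.66 and 4.47 in WT. It was not well above background on any DKO array. Against the lowest signal called above background for any probe on each of those arrays, it read at least 2.00-fold lower in DKO than in Gadd45a-KO. That bound holds for the main processing only. The adjusted p of 0.0246 by limma belongs to the values as read and not to that bound. For Ing1 loss over both states the fitted log2 fold change was -1.11 ± 0.32 with an adjusted p of 0.0377 by limma. With normexp background correction the log2 fold change in DKO against Gadd45a-KO was -0.45, short of that bound. The value for Ing1 loss was -0.24 with that correction and did not pass. The call for Ing1 loss over both states was lost in 9 of 12 fits that left out 1 array, and that in DKO against Gadd45a-KO without DKO replicate 1 or 2 or Gadd45a-KO replicate 2 or 3.

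The SoxF factors Sox7, Sox17 and Sox18, which act together in vessel formation, had positive log2 fold changes of 0.69 ± 0.24, 0.47 ± 0.26 and 0.45 ± 0.23 in DKO against Gadd45a-KO, with adjusted p of 0.0739, 0.234 and 0.192 by limma. Sox7 had signals of 9.50, 10.26 and 9.31 in DKO against 9.32, 8.93 and 8.75 in Gadd45a-KO, and the groups overlapped. With the slide as a block its adjusted p was 0.0402. A second Sox17 probe gave 0.57 ± 0.25. Erg, the ETS factor of endothelium, had 0.17 ± 0.27 on its brightest probe and -0.16 ± 0.25 on the second, so its direction is not settled.

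In the group of secreted and capillary genes, Plvap fell and Gpihbp1 rose in DKO against Gadd45a-KO. Plvap, the protein of endothelial diaphragms and fenestrae, had signals of 12.22, 12.24 and 12.35 in DKO and 12.54, 12.37 and 12.56 in Ing1-KO, against 12.90, 13.00 and 13.02 in Gadd45a-KO and 12.53, 12.88 and 12.55 in WT. DKO lay below both Ing1-carrying groups, and Ing1-KO overlapped WT. Against Gadd45a-KO alone, DKO lay below without overlap for 21.6% of all genes. The Plvap log2 fold change was -0.70 ± 0.11 (1.62-fold lower) in DKO against Gadd45a-KO and -0.43 ± 0.08 for Ing1 loss over both states, both with an adjusted p of 0.00915 by limma. Within slides the first difference was -0.68, -0.76 and -0.66. A second Plvap probe gave -0.63 ± 0.13 and -0.28 ± 0.09, and the brightest probe passed in all 12 fits that left out 1 array. In Ing1-KO against WT the probes differed in sign, at -0.16 on the brightest and 0.07 ± 0.13 on the second.

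Gpihbp1, which carries lipoprotein lipase to the capillary lumen, had 14.07, 13.97 and 13.46 in DKO and 13.89, 13.44 and 13.58 in Ing1-KO, against 13.51, 12.89 and 12.77 in Gadd45a-KO and 13.35, 13.84 and 13.10 in WT. DKO replicate 3 lay just below Gadd45a-KO replicate 1. Its log2 fold change was 0.78 ± 0.24 (1.71-fold) in DKO against Gadd45a-KO with an adjusted p of 0.0487 by limma, and 0.49 ± 0.17 with an adjusted p of 0.0677 for Ing1 loss over both states. With the slide as a block the second p was 0.032, and with centring on the median the value was 0.58 with a p of 0.0484, both past the threshold. Within slides the first difference was 0.56, 1.08 and 0.68. The first call held in 4 of 12 fits that left out 1 array.

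Nos3, the endothelial nitric oxide synthase, had 13.71, 13.38 and 13.25 in DKO against 13.00, 12.89 and 12.81 in Gadd45a-KO. DKO lay above Gadd45a-KO without overlap, as for 15.9% of all genes. The log2 fold change of 0.55 ± 0.18 had an adjusted p of 0.0606 by limma. With the slide as a block that p was 0.0409. Its second probe gave 0.77 ± 0.18. The clotting factor gene Vwf had 0.17 ± 0.20, the secreted matrix protein gene Egfl7 0.11 ± 0.21 and Rasip1, a regulator of vessel lumen formation, 0.03 ± 0.20.

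**Figure D3:**
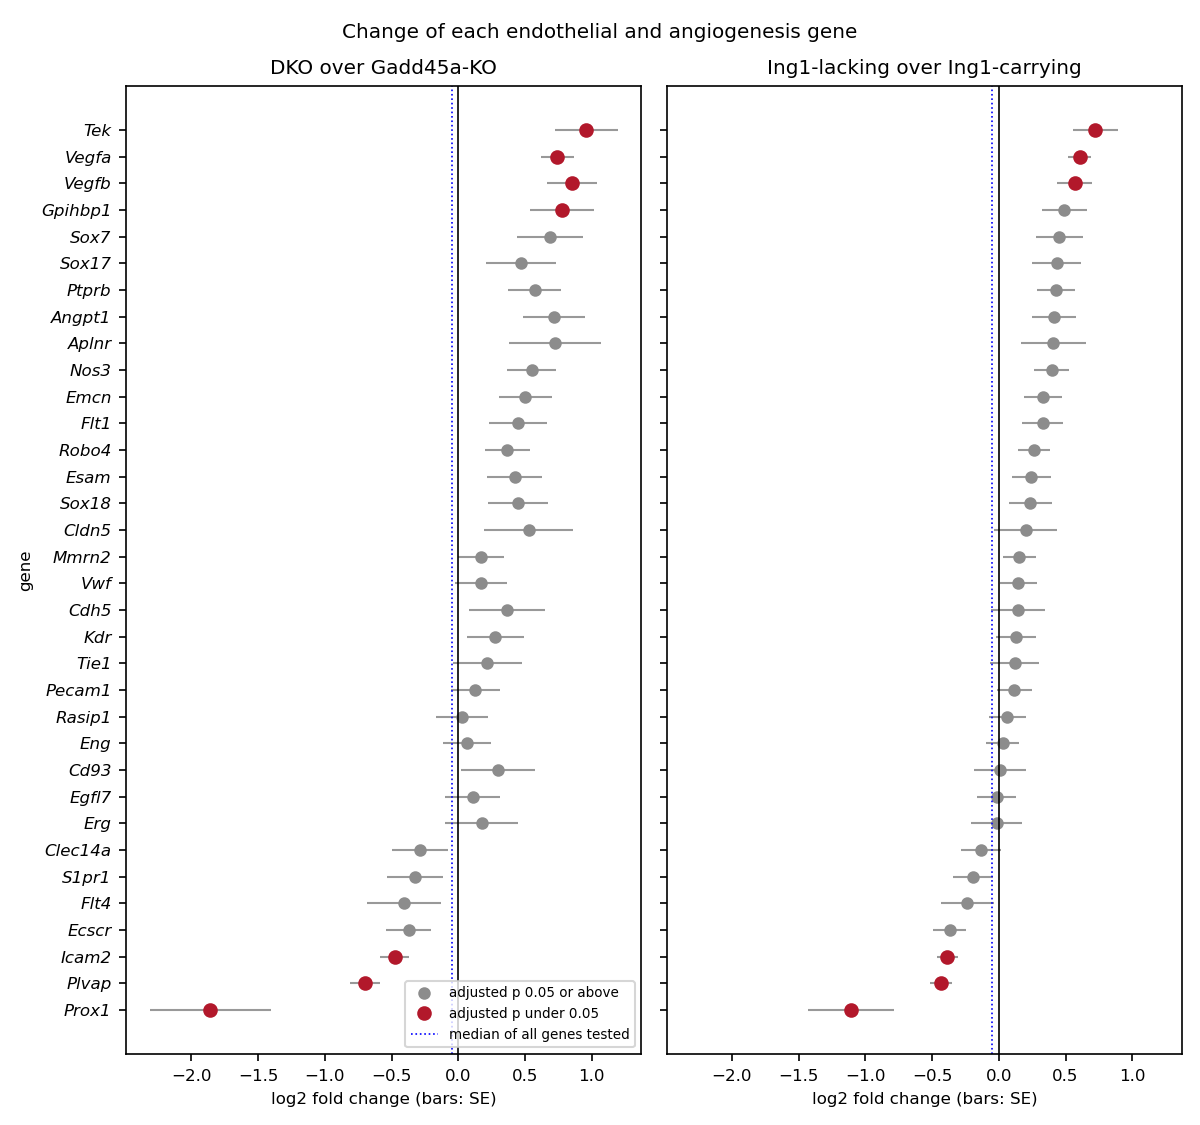
Log2 fold change (horizontal axis) of each of the 34 genes with its SE, in DKO over Gadd45a-KO (left) and in the 6 arrays without Ing1 over the 6 with it (right). Red points passed an adjusted p of 0.05 and the dotted line is the median of all genes tested. Tek, Vegfa and Vegfb lie at the positive end on both sides and Prox1, Plvap and Icam2 at the negative end; the left Prox1 point is taken from DKO arrays not above background and is no measured fold.

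Against WT, none of the 34 genes passed in any single genotype. In DKO against WT limma called 0 of 34, where 0.184% of all genes passed. An unadjusted p under 0.05 was reached by 6 of the 34, against 23.2% of all genes. The smallest adjusted p were those of Vegfa with a log2 fold change of 0.66 ± 0.12 (adjusted p 0.0593), Icam2 with -0.38 ± 0.11 (0.0919), Plvap with -0.38 ± 0.11 (0.0976), Vegfb with 0.56 ± 0.19 (0.118) and Tek with 0.68 ± 0.24 (0.128). The second probes gave 0.53 ± 0.17 for Vegfa and -0.20 ± 0.13 for Plvap. The median over the 34 was 0.22 against -0.06 over all genes. Vegfa passed with the slide as a block (adjusted p 0.0346), where 2.2% of all genes did, and with centring on the median (0.0474), where the range over all such settings was 0.0346 to 0.248.

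Ing1-KO against WT, which reads Ing1 loss alone, called 0 of 34 by limma, beside 0.00318% of all genes. An unadjusted p under 0.05 was reached by 2, against 8.84% of all genes. Vegfa had a log2 fold change of 0.47 ± 0.12 with an adjusted p of 0.398 on its brightest probe and 0.24 ± 0.17 on its second. Icam2 had -0.29 ± 0.11 with 0.542. The 3 Ing1-KO arrays lay above the 3 WT arrays for Vegfa, as for 6.76% of all genes, and below them for Icam2, as for 10.9%. Ecscr had -0.37 ± 0.17, Tek 0.49 ± 0.24 and Vegfb 0.28 ± 0.19, and the median over the 34 was 0.08 against -0.05 over all genes.

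No gene passed in the comparisons on the labelled Gadd45a state. Gadd45a-KO against WT called 0 of 34 by limma, beside 0% of all genes, with 1 at an unadjusted p under 0.05, against 2.36% of all genes. That gene was Plvap with 0.32 ± 0.11, or 0.43 ± 0.13 on its second probe, and the next were Prox1 with 0.88 ± 0.45, Vegfb with -0.29 ± 0.19, Gpihbp1 with -0.37 ± 0.24 and Tek with -0.28 ± 0.24, each with an adjusted p of 1. DKO against Ing1-KO called 0 by limma, beside 0.00318% of all genes, with 0 at an unadjusted p under 0.05, against 3.61% of all genes. Its smallest p were those of Plvap at -0.21 ± 0.11, Angpt1 at 0.41 ± 0.23, Vegfa at 0.19 ± 0.12 (0.29 ± 0.17 on its second probe), Vegfb at 0.28 ± 0.19 and Cldn5 at 0.48 ± 0.33. Gadd45a loss averaged over both Ing1 states called 0 by limma, beside 0.00318% of all genes, with 0 at an unadjusted p under 0.05, against 0.944% of all genes, and the 34 values lay between -0.14 and 0.16.

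Whether the change on losing Ing1 differed by the labelled Gadd45a state was read from the interaction term, which is DKO less Gadd45a-KO minus Ing1-KO less WT. It called 0 of 34 by limma, beside 0% of all genes, with 2 at an unadjusted p under 0.05, against 6.04% of all genes. They were Plvap with -0.54 ± 0.16, or -0.71 ± 0.19 on its second probe, and Prox1, which was not well above background in DKO, followed by Vegfb with 0.57 ± 0.26, Angpt1 with 0.61 ± 0.33 and Gpihbp1 with 0.57 ± 0.34, all with an adjusted p of 0.721. A larger change in DKO against Gadd45a-KO than in Ing1-KO against WT was therefore not shown for any of them.

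Leaving out single arrays moved the counts. In DKO against Gadd45a-KO, 2 of the 34 genes (5.88%) were called without DKO replicate 2, Gadd45a-KO replicate 2 or Gadd45a-KO replicate 3, where 2.27%, 3.78% and 1.75% of all genes were. Without DKO replicate 1 it was 3 (8.82%, against 3.01% of all genes), and without DKO replicate 3 it was 11 (32.4%, against 22.8%). The share over all genes thus moved with the count, and the median over the 34 was 0.07 without DKO replicate 2 and 0.49 without DKO replicate 3. Vegfa and Plvap remained called in each of these fits. For Ing1 loss over both states between 5 and 11 genes were called, with 11 without DKO replicate 3 or WT replicate 2 (32.4%, against 23% and 22.9% of all genes) and 5 in 8 of the fits (14.7%, against 6.69% to 11.2% of all genes). Vegfa, Vegfb, Tek, Plvap and Icam2 passed in all 12 such fits. In DKO against WT 3 genes (8.82%) were called without DKO replicate 3, where 11% of all genes were, 2 (5.88%) without WT replicate 2, where 3.48% were, and 1 (2.94%) without Gadd45a-KO replicate 3, where 0.763% were. With the slide as a block, 10 genes were called, 7 higher and 3 lower, both in DKO against Gadd45a-KO, where 19.9% of all genes passed, and for Ing1 loss over both states, where 20.8% did.

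The wider network of ligands, receptors and Notch genes was read in the same way from lists chosen with earlier results of these data known. Beside the counts of these and the later lists, 15.6% of all genes were called in DKO against Gadd45a-KO, 6.39% higher and 9.17% lower. For Ing1 loss over both states 16.6% of all genes were called, 6.6% higher and 10% lower. Of 17 other ligands, 1 rose in DKO against Gadd45a-KO, Bmp6 with 1.04 ± 0.25 (adjusted p 0.0246 by limma). For Ing1 loss over both states Bmp6 and the VEGF receptor blocker Timp3, with 0.46 ± 0.14, both rose. Vegfd, a ligand of Flt4, had 0.37 ± 0.14 and did not pass. Of 15 other receptors, 3 rose and 3 fell in DKO against Gadd45a-KO. The collagen-binding integrin Itga1 had 0.70 ± 0.17, the chemokine scavenger Ackr3 0.74 ± 0.19 and the reelin receptor Lrp8 -1.22 ± 0.33.

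Of 15 genes of Notch signalling and of arterial or venous identity, 2 rose in DKO against Gadd45a-KO, where 6.39% of all genes rose. They were the Notch ligand Jag1 with 0.68 ± 0.16 and the Notch target Hey1 with 0.52 ± 0.16, with adjusted p of 0.0202 and 0.0484 by limma. For Ing1 loss over both states the receptor Notch1 fell, with -0.76 ± 0.16 and an adjusted p of 0.0141, while Jag1 rose with 0.59 ± 0.11. Of 18 further transcription factors used by endothelium, 2 rose and 2 fell in DKO against Gadd45a-KO. Epas1, the hypoxia-inducible factor HIF2-alpha, rose with 0.59 ± 0.12, and Lyl1 and Lmo2, factors shared with blood cells, fell with -0.68 ± 0.16 and -0.53 ± 0.14. In DKO against Gadd45a-KO none of these 4 lists had a call left without DKO replicate 2 or without Gadd45a-KO replicate 3. In those fits 2.27% and 1.75% of all genes were called. For Ing1 loss over both states the ligand list called 1 gene with either array left out. The receptor list called 2 without DKO replicate 2 and 1 without Gadd45a-KO replicate 3. The Notch list called 2 with either left out, and the transcription factor list called 3 and 2. Of all genes 9.23% were called without DKO replicate 2 and 8% without Gadd45a-KO replicate 3.

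Of 19 further pan-endothelial genes measured, 5 rose and 0 fell in DKO against Gadd45a-KO, where 6.39% of all genes rose. For Ing1 loss over both states 6 rose and 0 fell, where 6.6% of all genes rose. The medians were 0.48 and 0.37, against -0.04 and -0.05 over all genes. The adhesion receptor Adgrl4, which marks angiogenic endothelium, rose with 0.87 ± 0.15 (adjusted p 0.00952 by limma), the caveolar coat gene Cav1, which fat cells also express strongly, with 0.86 ± 0.24, and Adgrf5 with 0.68 ± 0.19. Without DKO replicate 2 the counts were 1 and 2, where 2.27% and 9.23% of all genes were called. Without Gadd45a-KO replicate 3 they were 1 and 1, where 1.75% and 8% of all genes were called. The mean deviation of the list was 0.01 to 0.55 in DKO and 0.01 to 0.27 in Ing1-KO, against -0.37 to -0.13 in Gadd45a-KO and -0.28 to 0.12 in WT.

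Of 5 lymphatic markers measured, 0 rose and 3 fell in DKO against Gadd45a-KO and 2 fell for Ing1 loss over both states. Of all genes 9.17% and 10% fell in these comparisons. The hyaluronan scavenger Stab2 had -1.58 ± 0.23 (adjusted p 0.0076 by limma), Thy1, which T cells and stromal cells also carry, -0.87 ± 0.19, and the multimerin Mmrn1 -1.11 ± 0.32. The remaining measured markers, Lyve1 and Pdpn, did not pass in DKO against Gadd45a-KO. The list's mean deviation was -0.44 to -0.26 in DKO and -0.40 to 0.13 in Ing1-KO, against 0.32 to 0.65 in Gadd45a-KO and -0.15 to 0.21 in WT. Reln was at background on all 12 arrays. Without DKO replicate 2 or Gadd45a-KO replicate 3 the count in DKO against Gadd45a-KO was 1, where 2.27% and 1.75% of all genes were called. Of 4 measured genes of activated endothelium, the leukocyte adhesion molecule Vcam1 fell with -1.21 ± 0.20, Icam1 had -0.71 ± 0.28 and did not pass, and Sele was at background on all 12 arrays.

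Markers of other cells in the fat depot moved alongside, and their part in the results was not tested. In DKO against Gadd45a-KO, 6.39% of all genes rose and 9.17% fell. Of 12 adipocyte markers, 7 rose in DKO against Gadd45a-KO, among them leptin (Lep) with 1.33 ± 0.24, and their summed signal was 1049 to 1511 in DKO and 1028 to 1187 in Ing1-KO, against 791 to 945 in Gadd45a-KO and 836 to 1370 in WT, in units of 1000 of the normalized intensity. Of 14 genes of the hypoxia response, which includes Vegfa among its known targets, 3 rose and 2 fell, with Bnip3 at 0.92 ± 0.19, Egln3 at 0.70 ± 0.17 and Car9 at -0.91 ± 0.21. Of 12 pericyte and smooth muscle markers, 1 rose, Rgs5 with 0.88 ± 0.25, and the summed signal was 25.6 to 36.0 in DKO and 26.2 to 28.2 in Ing1-KO, against 22.9 to 28.3 in Gadd45a-KO and 20.5 to 35.6 in WT. Of 9 adipocyte progenitor markers limma called 0, with 0 at an unadjusted p under 0.05, against 33.1% of all genes.

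In the same comparison, where 6.39% of all genes rose and 9.17% fell, 6 of 8 T cell markers fell, with Cd3e at -1.02 ± 0.24. Their summed signal was 24.1 to 57.0 in DKO and 44.0 to 67.8 in Ing1-KO, against 72.9 to 95.4 in Gadd45a-KO and 62.2 to 81.9 in WT. Of 8 neutrophil markers 6 fell, and the summed signal was 1.55 to 2.44 in DKO and 1.78 to 3.35 in Ing1-KO, against 5.07 to 44.3 in Gadd45a-KO and 1.57 to 4.28 in WT. Of 8 macrophage markers 3 fell, with Csf1r at -0.84 ± 0.12, at a summed signal of 40.6 to 51.1 in DKO and 47.7 to 50.5 in Ing1-KO, against 65.7 to 76.3 in Gadd45a-KO and 53.2 to 69.6 in WT. Of 5 red blood cell markers 2 rose, with Hbb-bt at 0.67 ± 0.20. Skeletal muscle markers gave 0 of 10 called by limma, and 0 at an unadjusted p under 0.05, against 33.1% of all genes. Their highest mean deviations were in Ing1-KO replicate 1 and DKO replicate 1, at 3.97 and 2.44. Of 8 mesothelial markers 4 were measured and 1 rose, and the defining genes Upk3b, Upk1b, Msln and Wt1 were at background on all 12 arrays. The pericyte, red blood cell and mesothelial lists had no call left without DKO replicate 2 or without Gadd45a-KO replicate 3. Without DKO replicate 2 the adipocyte count was 1, the T cell count 0, the neutrophil count 2, the macrophage count 1 and the hypoxia count 0. Without Gadd45a-KO replicate 3 the same counts were 1, 0, 5, 1 and 1. In these fits 2.27% and 1.75% of all genes were called.

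**Figure D4:**
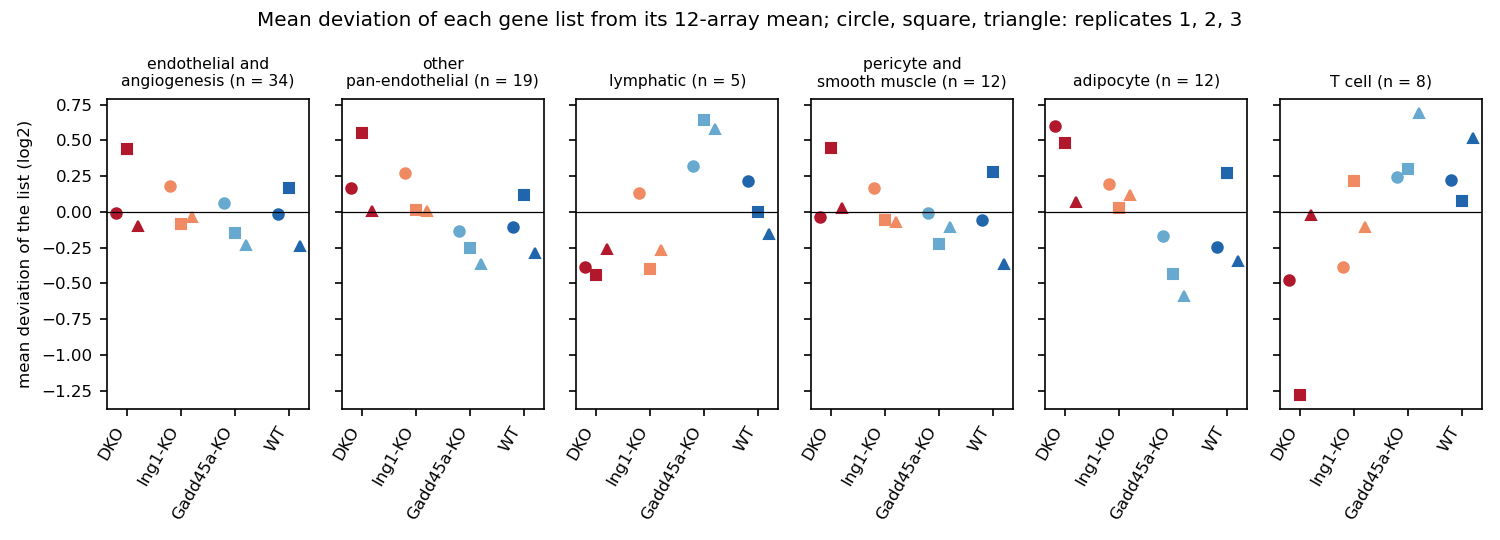
Mean deviation (log2) of each gene list from its mean over 12 arrays, by genotype, with 1 point per array. The endothelial and angiogenesis genes of DKO replicate 2 stand at 0.44, the highest single points of the other pan-endothelial and adipocyte lists are DKO replicates 2 and 1, and the lowest single point of the lymphatic and T cell lists is DKO replicate 2. DKO replicate 3 lies among the points of the other genotypes in these 4 lists.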

How the data were processed

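Gonadal fat RNA was read on 12 Cy3 arrays, with 3 for each genotype. The values of the scanner files as deposited are intensities; the background-corrected processed signal came from Feature Extraction 10.7.3.1, per the file headers. The deposited table of the authors holds log2 values of 38927 probes; the submitters' processing notes name limma 3.26.9, and its filter and normalization are not given in the sources used here. Its column medians were 7.82 to 7.85, and each column correlated best with its own array.

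RefSeq accessions stood with 29150 of 55681 probes, and the GRCm38.p6 table gave 27509 a symbol. The log2 processed signal was brought to 1 common 75th percentile on all arrays. Probes well above background on at least 3 arrays were kept, with the brightest probe per gene. All 12 arrays were fitted with 4 genotype means in limma 3.58.1 (R 4.3.3), with trended, robust empirical Bayes moderation, two-sided, Benjamini-Hochberg over all genes, threshold 0.05, after a test on simulated data. "Rose" and "fell" mean past that threshold.

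The 34 genes, the gene lists and the rule for naming were chosen with earlier results of these data known, so no list has a test of its own. Named in full are genes past the threshold, up to 5 with the smallest p in each comparison, and up to 3 of each other list. The replicate number equals the slide and scan, and each slide carried 1 array per genotype. Same-numbered arrays correlated over 0.1, as deviations from group means, in 9 of 18 pairs (-0.276 to 0.424), so the numbers were not taken as pairs. Of the 12 arrays, 9 correlated best, among arrays of other genotypes, with one of their own number. Whether the slide moved the values was not tested. The main p-values leave the slide out, and it was fitted as a block only as an alternative. Alternatives were scaling, background correction with normexp, the authors' values, filters, probe averaging, plain empirical Bayes, only the arrays compared, slide or array row as a block, and each array left out.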

Additional observations from a re-analysis of the deposited data

How the results depend on the processing

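Of the 34 genes, DKO against WT called 1 with centring on the median and 1 with the replicate block, that is, the slide, and 0 in the other settings that kept all arrays; without single arrays it called 0 to 3, with a median log2 fold change of -0.02 to 0.34. DKO against Gadd45a-KO called 2 with only the arrays compared, a fit with fewer residual degrees of freedom, and 2 to 11 without single arrays, with a median of 0.066 to 0.49. Ing1 loss over both Gadd45a states called 10 with the replicate block and 5 to 11 without single arrays, with a median of 0.07 to 0.26. The remaining comparisons called 0 of 34 in every setting run, and their medians without single arrays were -0.01 to 0.19 for Ing1-KO against WT, -0.25 to 0.01 for Gadd45a-KO against WT, -0.07 to 0.26 for DKO against Ing1-KO, 0.04 to 0.38 for the interaction and -0.10 to 0.07 for Gadd45a loss over both Ing1 states. Over all genes, the count in DKO against WT was 58, 1 with only the arrays compared, 692 with the replicate block and 1 to 3449 without single arrays; in DKO against Gadd45a-KO it was 4894, 651 with only the arrays compared and 549 to 7160 without single arrays; for Ing1 loss over both states it was 5222 and 2103 to 7223 without single arrays. With centring on the median the median of all genes was 0.05 in DKO against WT, against -0.06. The causes of these shifts between settings were not tested. In DKO against Gadd45a-KO, Vegfa and Plvap passed in 11 of 11 settings that kept all arrays, Tek and Vegfb in 10, Icam2 in 9 and Gpihbp1 in 7, with Icam2 lost at -0.39 with centring on the median; Prox1 passed in 9 of 10 there and in 4 of 9 for Ing1 loss over both states. The list counts without DKO replicate 2 and without Gadd45a-KO replicate 3 were chosen after seeing the data. Prox1 is limited by its signal over background.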
